A study of Mus musculus with 6 samples.

Results

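The 10 genes described here encode the proteins that bring long-chain fatty acids into the cell, carry them through the cytosol and activate them: Cd36, the transport proteins Slc27a2 and Slc27a4, the fatty acid binding proteins Fabp1, Fabp2 and Fabp5, and the long-chain acyl-CoA synthetases Acsl1, Acsl3, Acsl4 and Acsl5. They were chosen by gene symbol and function from the 40803 genes of the count table, and all 10 passed the filter on low counts that left 16327 genes for testing. After knockdown of the lncRNA Hnf1aos1 none of the 10 passed edgeR's test across all genes, while DESeq2, and edgeR with library sizes from spike-in RNA, each called Fabp5 higher. Of all genes, edgeR's test called 1032, DESeq2 1228 and the spike-in setting 3394. Acsl4 and Fabp5 had higher counts in every knockdown library than in any scramble library, at 2.16-fold and 1.92-fold of the scramble level in the fit. Across all genes tested, the groups did not overlap for 28.9% in either direction and for 15.2% with the knockdown higher. The fitted fold changes of the other 8 members lay between −0.38 and 0.16 on the log2 scale.

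Liver RNA came from 6 male C57BL/6J mice injected through the tail vein at about 6 weeks of age with livers taken 4 weeks later, under normal feeding and with 1 library per mouse. The 3 rAAV8-sh-scramble mice received an adeno-associated virus of serotype 8 with a scrambled short hairpin, and the 3 rAAV8-sh-Hnf1aos1 mice the same vector with a hairpin against Hnf1aos1, so that both groups carried virus, hairpin and an EGFP reporter. The hairpin was driven by the U6 promoter and EGFP by the CAG promoter, neither of which is restricted to hepatocytes, and each group received 1 hairpin sequence. RNA was taken from whole liver, in which fewer cells of a type and less RNA per cell cannot be told apart.

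Long-chain fatty acids reach the liver bound to albumin or within lipoproteins. CD36 and the fatty acid transport proteins favour their entry, the small cytosolic binding proteins keep them in solution, and acyl-CoA synthetases join them to coenzyme A, which traps them in the cell and commits them to oxidation, to triglyceride and phospholipid synthesis or to elongation. In hepatocytes many of these genes are known targets of the nuclear receptor PPARα, which binds DNA with RXRα at repeats of a short half-site.

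The promoters of 4 members are shown because they hold the members that the values below turn on: Acsl4, with the highest fitted fold change, Acsl1, the most abundant of the Acsl synthetases, Fabp1, the most abundant of the 10 transcripts, and Cd36, the most variable between scramble mice. Each sequence runs 5′ to 3′ on the gene's strand and ends at the base before the RefSeq start (build GRCm38.p6). Capitals mark matches on either strand to the nuclear receptor half-site AGGTCA, the TATA box TATAAA, the GC box GGGCGG and the CCAAT box CCAAT. The windows are chrX:142390536-142390785 (− strand) for Acsl4, chr8:46470787-46471036 (+ strand) for Acsl1, chr6:71199629-71199826 (+ strand) for Fabp1 and chr5:17835897-17836146 (− strand) for Cd36. The Fabp1 window was ended 52 bases early, where the first exon begins in the GENCODE annotation, and the Cd36 window lies in an intron of longer annotated Cd36 transcripts.
Acsl4: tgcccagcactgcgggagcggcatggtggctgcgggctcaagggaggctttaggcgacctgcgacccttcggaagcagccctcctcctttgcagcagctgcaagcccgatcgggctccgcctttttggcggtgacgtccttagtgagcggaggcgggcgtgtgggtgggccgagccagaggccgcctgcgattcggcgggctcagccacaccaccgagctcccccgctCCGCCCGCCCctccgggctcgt
Acsl1: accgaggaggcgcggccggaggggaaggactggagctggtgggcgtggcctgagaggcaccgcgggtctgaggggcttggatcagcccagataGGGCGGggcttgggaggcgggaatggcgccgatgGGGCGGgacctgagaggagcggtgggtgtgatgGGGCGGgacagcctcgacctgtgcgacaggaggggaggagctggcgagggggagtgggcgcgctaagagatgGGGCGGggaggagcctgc
Fabp1: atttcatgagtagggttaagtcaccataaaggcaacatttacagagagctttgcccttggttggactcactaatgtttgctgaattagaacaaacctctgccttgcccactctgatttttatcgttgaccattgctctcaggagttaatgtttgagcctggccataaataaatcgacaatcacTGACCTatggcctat
Cd36: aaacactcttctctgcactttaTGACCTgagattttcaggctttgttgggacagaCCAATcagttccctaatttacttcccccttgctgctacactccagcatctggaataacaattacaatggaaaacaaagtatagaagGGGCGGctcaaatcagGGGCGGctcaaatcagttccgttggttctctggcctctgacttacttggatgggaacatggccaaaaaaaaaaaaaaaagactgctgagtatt

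RefSeq windows of 250 bases before the start were matched for 9 of the 10 members, all but Fabp5, with 2 windows for Acsl1, and compared with all 32851 windows of that length. The Acsl4 window was 70.8% G and C, with 2 GC boxes that overlap each other 22 and 18 bases before the start and none of the other motifs. The Acsl1 window shown was 72.0% G and C with 4 GC boxes, while that of a start further along the gene (chr8:46490716-46490965) was 48.4% with no GC box and 2 CCAAT boxes. Cd36 stood at 43.2% and Fabp1, over its full window, at 42.8%, and the median of all windows was 52.4%. Fabp1 held the half-site, read on the other strand as TGACCT, 67 and 9 bases before its start and a TATAAA 30 bases before it, so that 1 of its half-sites and the TATA box lie in the stretch that is not shown. In Cd36 a TGACCT lay 228 bases before the start. Over the 10 windows of these members the half-site was found in 3 (14% of all windows), the GC box in 6 (32.7%), the CCAAT box in 5 (33.8%) and the TATA box in 1 (12.4%). A direct repeat of exact copies of the half-site, with 1 base of any kind between them, was in none of these windows and in 0.0335% of all windows. Repeats with a mismatch in either copy were not searched for, so their presence in these windows is not described. These matches describe letters in a window and not binding.

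The gene totals of the libraries were 14704746 to 19462398 counts. Hnf1aos1, the targeted lncRNA, had 512, 491 and 620.3 normalized counts in scramble replicates 1 to 3 against 278, 258 and 433 in knockdown replicates 1 to 3, without overlap, but it was not called (log2 fold change −0.74, standard error 0.195, adjusted p = 0.0625). The fitted knockdown level was 59.8% of the scramble level. By RT-qPCR, in larger groups of mice given the same vectors, the paper reports a significant fall of Hnf1aos1. Values of a group follow the order of its replicates 1 to 3. Normalized counts are raw counts corrected for library size after TMM scaling, on the scale of a library of mean size, a log2 fold change is knockdown over scramble, and a gene is called when the adjusted p of edgeR's quasi-likelihood test (Benjamini-Hochberg over all 16327 genes) is under 0.05. Synthetic spike-in RNA took 1.38% to 1.52% of the counts in the scramble libraries and 1.18% to 1.24% in the knockdown libraries, and scaling by it in place of TMM shifted the median gene upward by 0.20 on the log2 scale. The hepatocyte markers that were measured, 6 of the 7 listed, summed to 74962 to 81104 TPM in the scramble and 71687 to 86400 TPM in the knockdown libraries.

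By level per transcript length, the 10 genes spanned more than 2 orders of magnitude in the scramble group, from Fabp1 to Acsl3. TPM, a deposited value that corrects for transcript length and library size, averaged 4098 ± 419 (SD, n = 3) for Fabp1, the main binding protein of liver, 1037 ± 123 for Slc27a2, a very-long-chain acyl-CoA synthetase that also transports fatty acids, 405 ± 32.5 for Acsl1 and 217 ± 15.7 for Acsl5. The ranges of these 4 did not overlap in either group, and in the knockdown group they kept the same order, at 3044 ± 845, 967 ± 39.5, 333 ± 74.7 and 185 ± 16.9 TPM.

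The other 6 members were much lower. In the scramble group Fabp2 (45.3 ± 16.6 TPM) and Acsl4 (42.0 ± 1.63 TPM) overlapped each other, and Fabp5 (23.4 ± 6.76 TPM), Cd36 (21.9 ± 11.0 TPM), Slc27a4 (20.9 ± 0.694 TPM) and Acsl3 (18.9 ± 1.59 TPM) each overlapped the next in order. In the knockdown group Acsl4 (87.2 ± 49.4 TPM), Fabp5 (42.7 ± 14.0 TPM) and Fabp2 (33.2 ± 3.69 TPM) formed an overlapping set above Acsl3 (20.2 ± 6.09 TPM), Slc27a4 (18.7 ± 1.90 TPM) and Cd36 (16.1 ± 2.46 TPM). By mean TPM Fabp5 ranked below both Fabp2 and Acsl4 in the scramble group, where its range overlapped that of Fabp2. In the knockdown group Fabp5 ranked between them, and its range overlapped both.

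**Figure D1:**
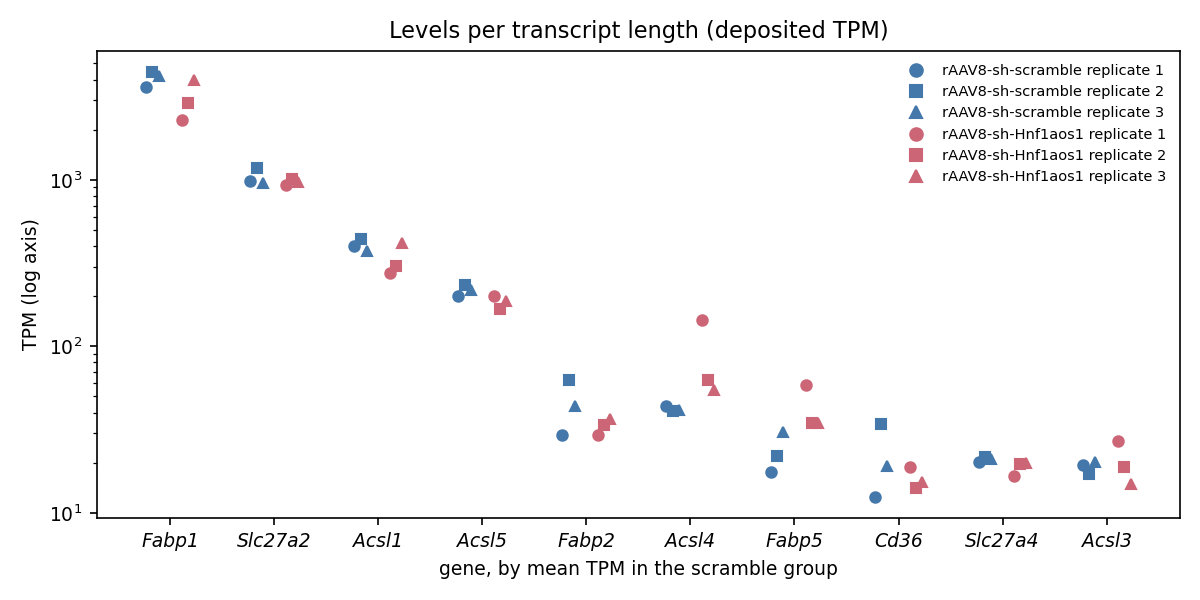
Deposited TPM of the 10 genes on a log axis, ordered by the scramble mean, with 1 symbol per library (blue for rAAV8-sh-scramble, red for rAAV8-sh-Hnf1aos1). Fabp1, Slc27a2, Acsl1 and Acsl5 stand above the rest in every library, the red symbols of Acsl4 and Fabp5 all lie above the blue ones, and those of Slc27a4 all lie below. In normalized counts the Slc27a4 groups overlapped.

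In the comparison of the groups, 0 of the 10 genes were called by edgeR, where 6.32% of all genes tested were called. At an unadjusted p under 0.05 there were 2, Fabp5 and Acsl4, against 23.4% of all genes. DESeq2 called 1 (Fabp5), limma's voom called 0, and scaling by the spike-ins called 1 (Fabp5). Over all genes these settings called 1228, 848 and 3394, where edgeR with TMM called 1032. Of the 3394 with spike-in scaling, 3030 were higher after knockdown. In normalized counts the groups did not overlap for 2 of the 10, both higher after knockdown, where 28.9% of all genes did not overlap and 15.2% did so with the knockdown higher. The members' share without overlap was thus below that of all genes in either direction, and somewhat above it for the higher direction alone. The median log2 fold change of the members was −0.11, with 3 above and 7 below 0, and that of all genes was −0.0004, while the median of the absolute values was 0.28 for the members and 0.21 for all genes. Of the 7 below 0, Slc27a2, Slc27a4 and Acsl5 lay above 0 when library sizes came from the spike-ins.

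**Figure D2:**
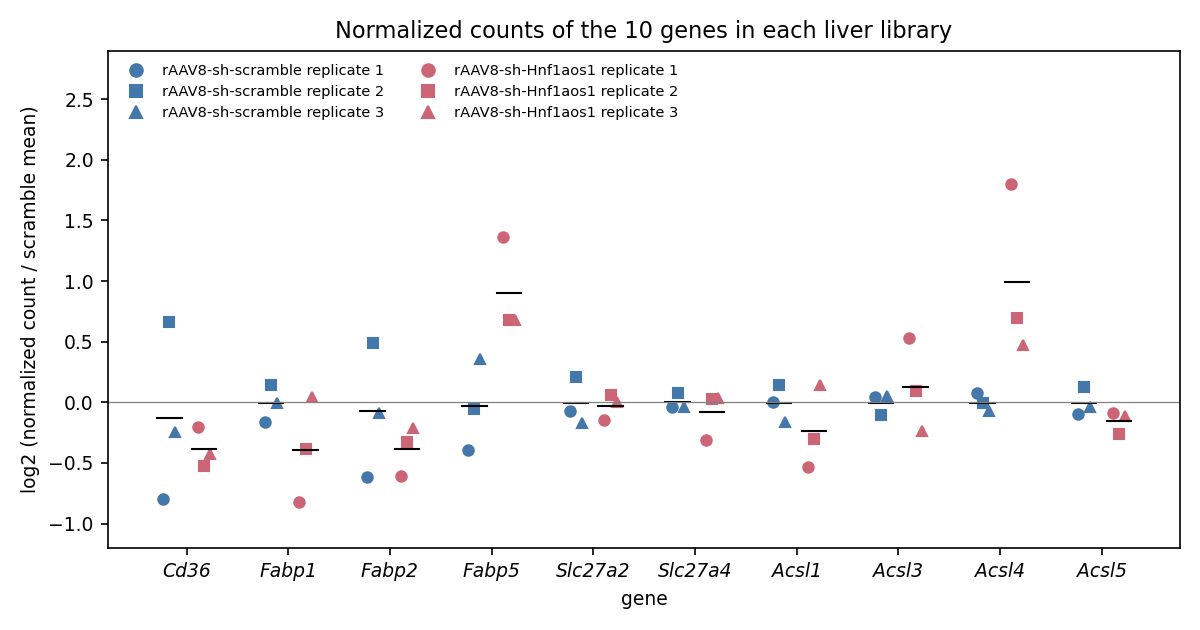
Normalized counts of each gene in each library on a log2 scale relative to the scramble mean, with horizontal bars at the mean of the 3 log2 values of a group. Knockdown replicate 1 stands far above the other libraries for Acsl4 and Fabp5, and scramble replicate 2 for Cd36.

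Individual mice set much of the spread. Scramble replicate 2 was the highest of its group in 7 of the 10 genes, where it was the highest for 34.5% of all genes tested. Knockdown replicate 1 was never between the others: it was the highest of its group for 5 members and the lowest for 5, where 35.3% and 35.1% of all genes fell so. It was the highest for Cd36, Fabp5, Acsl3, Acsl4 and Acsl5 and the lowest for Fabp1, Fabp2, Slc27a2, Slc27a4 and Acsl1. Where leaving out either library moved the log2 fold change of a member by over 1.5 times, the value without it is given.

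Cd36, on chromosome 5 (17781690 to 17888801, − strand, GRCm38), encodes a scavenger receptor that takes up fatty acids and oxidized lipoproteins in muscle, fat, macrophages and, at lower level, hepatocytes. Its normalized counts were 394, 1082 and 579 in scramble replicates 1 to 3 and 596, 475 and 509 in knockdown replicates 1 to 3. The scramble mice differed far more from each other (coefficient of variation 52.0%) than the knockdown mice (11.8%), and the knockdown range lay within the scramble range. The fitted log2 fold change was −0.38 (standard error 0.403, 95% interval −1.42 to 0.67, adjusted p = 0.634). Without scramble replicate 2 the sign turned, to 0.11 (adjusted p = 0.759 from the same test).

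Markers of skeletal muscle, a tissue rich in Cd36, were also highest in scramble replicate 2. The 5 markers summed to 44.9, 152 and 99.2 TPM in scramble replicates 1 to 3 and to 57.4, 40.4 and 16.9 TPM in knockdown replicates 1 to 3. The order of mice was that of Cd36 within the scramble group but not within the knockdown group. There the marker sum was lowest in replicate 3 and Cd36 in replicate 2. None of the 5 was called by edgeR (1 had an unadjusted p under 0.05), all had a log2 fold change below 0, and none was at 0 in all libraries. Adipocyte markers summed to 27.5 to 38.6 TPM in the scramble and 22.3 to 30.7 TPM in the knockdown group, with the highest sum again in scramble replicate 2 and 0 of the 4 tested markers called and 1 at an unadjusted p under 0.05. Fabp3, the binding protein of muscle, had 9 or fewer counts in each scramble library and 11 or fewer in each knockdown library. The part of muscle or fat in the Cd36 counts was not tested.

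Slc27a2 (chromosome 2, 126552407 to 126588243, + strand) had 17510, 21255 and 16283 normalized counts in scramble livers and 16588, 19134 and 18364 in knockdown livers. The groups overlapped. A log2 fold change of −0.025 was fitted (standard error 0.122, 95% interval −0.29 to 0.24, adjusted p = 0.924). Slc27a4 (chromosome 2, 29802634 to 29817522, + strand), a transport protein with acyl-CoA synthetase activity known best from intestine and skin, had 633, 684 and 630.2 normalized counts in scramble livers and 523, 663 and 664 in knockdown livers. Its log2 fold change was −0.074 (standard error 0.109, 95% interval −0.31 to 0.16, adjusted p = 0.731). For both transport proteins the sign depended on the setting: it turned for each of them without knockdown replicate 1 (0.024 for Slc27a2 and 0.025 for Slc27a4) and with spike-in scaling. Without scramble replicate 2 the value was 0.088 for Slc27a2 and −0.040 for Slc27a4. In deposited TPM the Slc27a4 groups did not overlap, at 20.1, 21.5 and 20.9 in scramble livers and 16.5, 19.8 and 19.9 in knockdown livers. On that measure the log2 fold change of Slc27a4 was −0.16 (adjusted p = 0.389 from limma), and the median over all genes tested was also below 0, at −0.074.

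Fabp1 (chromosome 6, 71199827 to 71205023, + strand) encodes liver fatty acid binding protein, which also binds bile acids, haem and acyl-CoA. It had 14420, 17822 and 16068 normalized counts in scramble replicates 1 to 3 and 9089, 12311 and 16620 in knockdown replicates 1 to 3. Knockdown replicates 1 and 2 lay below every scramble library, and replicate 3 lay within the scramble range. Its log2 fold change was −0.35 (standard error 0.20, 95% interval −0.80 to 0.11, adjusted p = 0.339). Without knockdown replicate 3, Fabp1 was called lower (log2 fold change −0.59, adjusted p = 0.0205 from edgeR). In that fit the calls over all genes also rose, from 1032 to 1881. Without knockdown replicate 1, the lowest of its group, the value shrank to −0.16 (adjusted p = 0.588), and over the 6 fits that each left out 1 library the adjusted p ranged from 0.0205 to 0.588.

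Fabp2 (chromosome 3, 122895072 to 122899506, + strand), the intestinal binding protein, had 219.6, 473 and 316 normalized counts in scramble livers and 220.3, 268 and 291 in knockdown livers. Its highest value, like that of Cd36, was in scramble replicate 2, and the groups overlapped. The fitted value of −0.37 on the log2 scale (standard error 0.27, 95% interval −1.01 to 0.27, adjusted p = 0.458) shrank to −0.047 without that library. Enterocyte markers were checked because Fabp2 is best known from intestine. Sis was at 0 counts in every library, and Alpi, Lct and Vil1 had 5 counts or fewer in each. Of the 6 markers only Slc5a1 and Apoa4 could be tested, with 0 called and 0 at an unadjusted p under 0.05. Apoa4, which liver also makes, accounted for most of the marker sum of 77.7 to 112 TPM in the scramble and 85.2 to 191 TPM in the knockdown group.

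Fabp5 (chromosome 3, 10012548 to 10016607, + strand) encodes the epidermal binding protein, which macrophages and fat cells also express and which delivers fatty acids to PPARδ. Its normalized counts were 129, 164 and 218 in scramble replicates 1 to 3 and 437, 272 and 273 in knockdown replicates 1 to 3. Every knockdown library lay above every scramble library, and knockdown replicates 2 and 3 were nearly equal. On the log2 scale the fold change was 0.94 (standard error 0.246, 95% interval 0.38 to 1.51, unadjusted p = 0.0050, adjusted p = 0.0638 from edgeR), a fitted 1.92-fold, and the gene was not called.

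Fabp5 was the member nearest to the threshold, and its call depended on the tool. Over 9 other settings the log2 fold change lay between 0.86 and 1.14 and the adjusted p between 0.0011 (DESeq2) and 0.139 (deposited TPM in limma), with 2 settings calling it. In fits that each dropped 1 library, the fold change was 0.67 to 1.16 (log2) and the adjusted p 0.0465 to 0.185, and only the fit without knockdown replicate 3 called it. A processed pseudogene, Fabp5l2, is annotated elsewhere in the genome, and since only uniquely mapped reads were counted, reads shared with such a copy would be missing from these values.

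**Figure D3:**
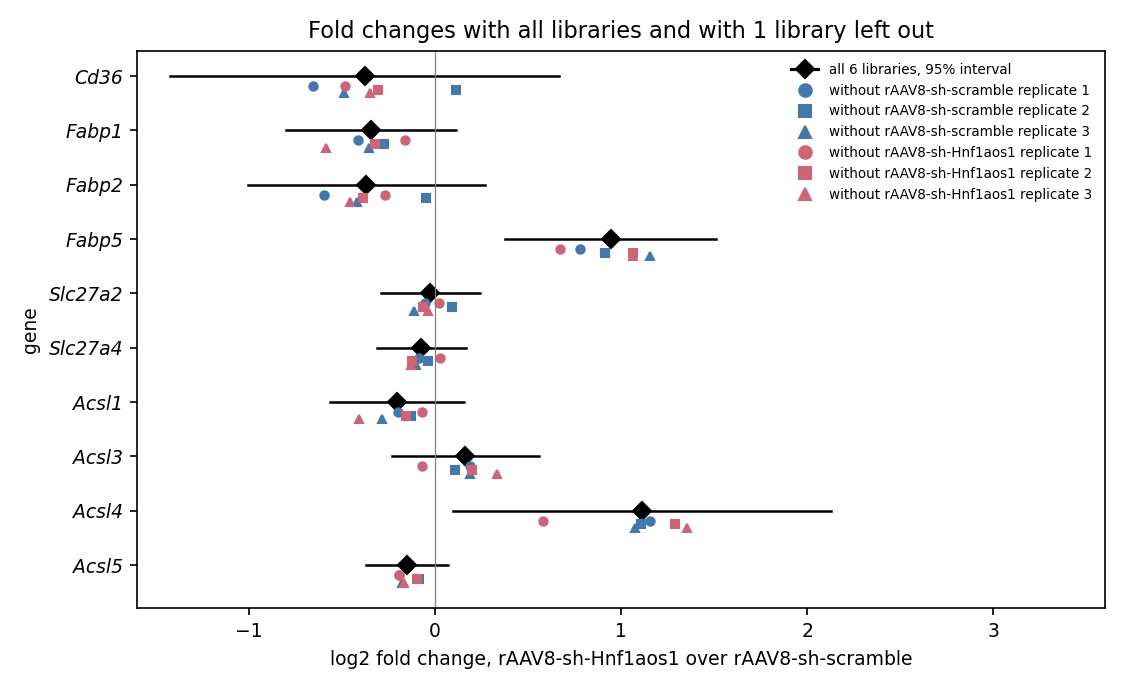
Log2 fold change of each gene (knockdown over scramble) with its 95% interval from edgeR (black) and the value with each library left out in turn (coloured symbols). The Acsl4 value falls from 1.11 to 0.58 without knockdown replicate 1, and the Cd36 value crosses 0 without scramble replicate 2.

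Acsl1 (chromosome 8, 46471037 to 46536051, + strand) encodes the main synthetase of hepatocytes, which feeds both triglyceride synthesis and oxidation. Its normalized counts were 21952, 24226 and 19561 in scramble livers and 15161, 17737 and 24141 in knockdown livers. As for Fabp1, knockdown replicates 1 and 2 lay below every scramble library and replicate 3 lay among them. The log2 fold change was −0.20 (standard error 0.164, 95% interval −0.57 to 0.16, adjusted p = 0.485). Leaving out knockdown replicate 3 gave −0.41 (adjusted p = 0.0598 from edgeR), leaving out knockdown replicate 1 gave −0.073 (adjusted p = 0.83) and leaving out scramble replicate 2 gave −0.13 (adjusted p = 0.73). The gene was not called in any of the 6 fits without 1 library.

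Acsl5 (chromosome 19, 55251938 to 55297720, + strand), a synthetase of mitochondria and endoplasmic reticulum, had 5229, 6113 and 5433 normalized counts in scramble livers and 5270, 4668 and 5167 in knockdown livers. The groups overlapped by knockdown replicate 1 alone, and the fold change was −0.15 on the log2 scale (standard error 0.10, 95% interval −0.37 to 0.068, adjusted p = 0.391), which turned to 0.047 with spike-in scaling and was −0.087 without scramble replicate 2. Exons of Acsl5 overlap Zdhhc6 on the opposite strand, and short overlaps of this kind exist for Acsl1 (Gm45244) and Slc27a2 (Gm26697). The strand setting of the counting is not given in the sources used here, so reads of such partners may be included.

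Acsl3 (chromosome 1, 78657825 to 78707743, + strand), which sits on the endoplasmic reticulum and on lipid droplets, had 649, 585 and 654 normalized counts in scramble livers and 909, 674 and 533 in knockdown livers. The knockdown mice lay on both sides of the scramble range. The log2 fold change was 0.16 (standard error 0.173, 95% interval −0.23 to 0.56, adjusted p = 0.616) and turned to −0.069 without knockdown replicate 1. Utp14b shares exon sequence with Acsl3 on the same strand, and how reads there were assigned is not given in the sources used here.

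Acsl4 (chromosome X, 142317993 to 142390535, − strand) encodes the synthetase that prefers arachidonic acid and other polyunsaturated fatty acids, steers them into phospholipids and is known for its role in ferroptosis, a cell death by lipid peroxidation. Its normalized counts were 1886, 1778 and 1696 in scramble replicates 1 to 3 and 6223, 2893 and 2486 in knockdown replicates 1 to 3. The scramble mice lay close together (coefficient of variation 5.33%), all 3 knockdown mice lay above them, and knockdown replicate 1 stood far above the rest (coefficient of variation of the knockdown group 53.0%). The log2 fold change was 1.11 (standard error 0.393, 95% interval 0.098 to 2.13, unadjusted p = 0.0373, adjusted p = 0.182 from edgeR), a fitted 2.16-fold, and the gene was not called.

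Without knockdown replicate 1 the log2 fold change of Acsl4 was smaller, 0.58, and the gene was called (adjusted p = 0.0107), where the remaining libraries of each group lay close together. With any of the other libraries left out it was not called, and over all 6 such fits the log2 fold change was 0.58 to 1.35 and the adjusted p 0.0107 to 0.395. Over 9 other settings with all libraries the log2 fold change was 0.91 to 1.31 and the adjusted p 0.0683 to 0.306, with 0 settings calling it.

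As shares of the family's transcripts by TPM, Acsl1 held most of the Acsl total and Acsl4 a small part in the scramble group. Acsl4 accounted for 6.58%, 5.61% and 6.30% of the summed TPM of Acsl1, Acsl3, Acsl4, Acsl5 and Acsl6 in scramble replicates 1 to 3 and for 22.2%, 11.4% and 8.09% in knockdown replicates 1 to 3. The groups did not overlap, and the means were 6.17% ± 0.502 and 13.9% ± 7.39 (SD, n = 3; p = 0.1 in an exact permutation test, two-sided, which is as low as 3 against 3 can reach, and 0.3 adjusted over the 9 shares compared). The difference of 7.73 percentage points fell to 3.57 without knockdown replicate 1. The share of Acsl1 was 60.4%, 60.2% and 57.3% in scramble livers and 42.6%, 55.0% and 61.9% in knockdown livers, with overlap (exact permutation p = 0.4, adjusted 0.514), and the difference of −6.13 points was −0.86 without knockdown replicate 1 and −10.5 without knockdown replicate 3. The shares of Acsl5 (27.7% to 33.3% over all libraries) and Acsl3 (2.22% to 4.14%) overlapped between groups. The Acsl total itself was 683 ± 40.6 TPM in the scramble and 626 ± 63.5 TPM in the knockdown group (exact permutation p = 0.4).

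**Figure D4:**
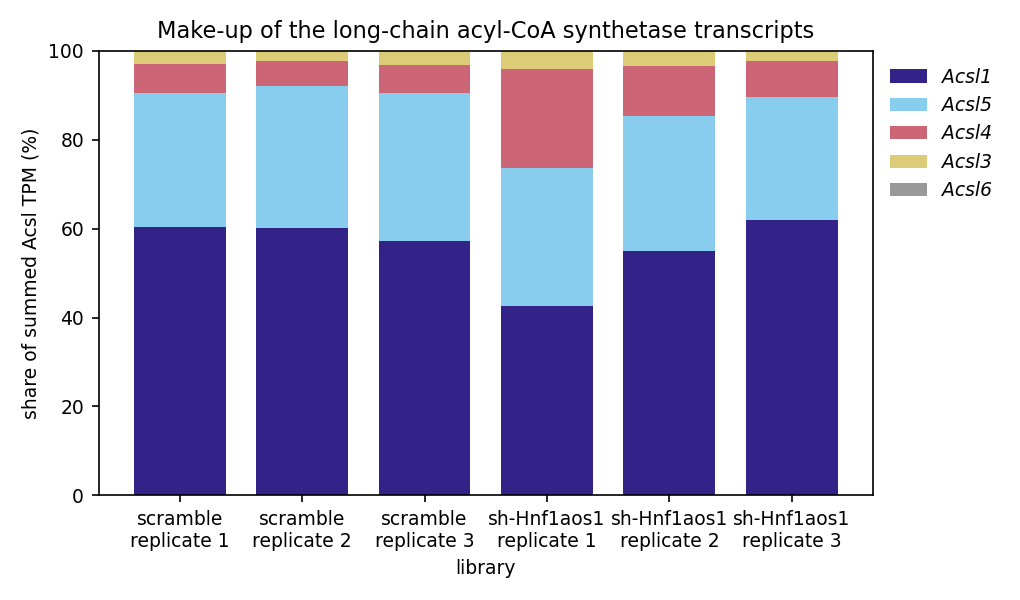
Share of each synthetase in the summed TPM of the Acsl family, in percent, 1 bar per library; Acsl6 is too low to see. The Acsl4 segment runs from 5.61% to 6.58% in the scramble libraries and from 8.09% to 22.2% in the knockdown libraries, where knockdown replicate 1 also has the smallest Acsl1 segment, 42.6%.

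Among the 10 binding proteins of the Fabp family, Fabp1 held 97.6% to 98.3% of the summed TPM in the scramble and 95.5% to 97.9% in the knockdown libraries. Fabp5 held 0.473%, 0.481% and 0.712% in scramble livers and 2.46%, 1.15% and 0.863% in knockdown livers, without overlap (exact permutation p = 0.1, adjusted 0.3). The difference in the Fabp5 share was 0.94 points, and 0.45 without knockdown replicate 1. The Fabp total was 4188 ± 441 TPM against 3136 ± 835 TPM, with overlap (exact permutation p = 0.2). Slc27a2 held 61.7%, 64.9% and 62.1% of the Slc27a total in scramble livers and 59.9%, 60.4% and 58.8% in knockdown livers, again without overlap (exact permutation p = 0.1, adjusted 0.3). The difference was −3.20 percentage points. In TPM the mean of Slc27a2 was 1037 for scramble and 967 for knockdown mice, and that of Slc27a5, which held most of the rest of the total, was 584 and 631. The shares of Fabp2 and Slc27a4 overlapped between groups.

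Values of some other cell types moved beside those of Acsl4 and Fabp5. The macrophage and Kupffer cell markers summed to 224.3, 183 and 192 TPM in scramble replicates 1 to 3 and to 285, 291 and 224.4 TPM in knockdown replicates 1 to 3. All 10 had a log2 fold change above 0, none was at 0 in all libraries, and 3 (Adgre1, Clec4f and C1qa) were called higher (3.09% of all genes were). Tested markers of other lists lay mostly below 0 for stellate cells (7 of 7), sinusoidal endothelium (6 of 7) and adipocytes (3 of 4). They lay mostly above 0 for monocytes and neutrophils (3 of 4) and for T and B lymphocytes (6 of 6). In each of these lists 0 were called. The list of cholangiocyte markers summed to 38.9, 32.7 and 38.6 TPM in the scramble and 183, 46.8 and 47.8 TPM in the knockdown libraries, highest in knockdown replicate 1 as for Acsl4, with 0 of 4 tested markers called and 0 at an unadjusted p under 0.05. That sum was carried by Spp1 (osteopontin), at 2161 normalized counts in knockdown replicate 1 and 282 to 513 in the other libraries, whereas Krt19 and Krt7, which define these cells, had 15 and 4 counts in knockdown replicate 1, within the range of the other libraries. Epcam, an epithelial surface marker of the same list, had 88 counts in knockdown replicate 1 and 10 to 37 in the other libraries, so that it was highest there as well. The part of these cells in the Acsl4 and Fabp5 values was not tested.

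A wider list of 36 other genes of uptake, binding and activation gave 26 that could be tested. In that list 1 gene was called higher (3.09% of all genes were) and 0 lower (3.23% of all genes) by edgeR. An unadjusted p under 0.05 was found for 6 of the 26, near the share of all genes (23.4%). DESeq2 called 3 of the list, and 1228 over all genes. The median log2 fold change was −0.052, with 11 above and 15 below 0. The gene called was Lpl, lipoprotein lipase, which frees fatty acids from circulating triglycerides. It had 364, 357 and 329 normalized counts in scramble livers and 517, 549 and 451 in knockdown livers (log2 fold change 0.53, standard error 0.106, adjusted p = 0.0172). Lpl was called in 8 of 9 other settings, all but deposited TPM (adjusted p = 0.0587), and lost its call when scramble replicate 2 (0.0537), scramble replicate 3 (0.118) or knockdown replicate 2 (0.0733) was left out. The study itself displayed Lpl from these libraries, so its place in the list is not independent evidence. It also reported Lpl as significantly higher by RT-qPCR.

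The 5 most abundant genes of that list were not called. Scp2, a sterol and acyl-CoA carrier of peroxisomes, had the highest mean at 2593 TPM (log2 fold change 0.24, adjusted p = 0.247 from edgeR), with every knockdown library above every scramble library in normalized counts but not in TPM. Slc27a5, the hepatic bile acyl-CoA synthetase, followed at 608 TPM (0.19, adjusted p = 0.305). Got2 (479 TPM), Dbi, the acyl-CoA binding protein (370 TPM), and the medium-chain synthetase Acsm1 (288 TPM) had log2 fold changes of −0.038, 0.044 and 0.12.

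The lowest log2 fold changes of the list, singled out after their values were seen, were those of Mfsd2a and Acss3. Mfsd2a, which carries lysophospholipids with polyunsaturated chains, had 107, 472 and 475 normalized counts in scramble livers and 36.2, 65.6 and 71.6 in knockdown livers. The groups did not overlap, but scramble replicate 1 lay close to the knockdown mice, and the log2 fold change of −2.60 (standard error 0.711) was not called by edgeR (adjusted p = 0.12), while it was called by DESeq2 (0.0041) and by edgeR without scramble replicate 1 (0.000553). Acss3, a mitochondrial synthetase of short chains, had 253, 1001 and 636 normalized counts in scramble livers and 137, 153 and 187 in knockdown livers (log2 fold change −1.98, standard error 0.563, adjusted p = 0.128 from edgeR and 0.00871 from DESeq2). Mfsd2a is also a gene that the study displayed.

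Among 17 transcriptional regulators known to act on these genes, edgeR called 3 lower (3.23% of all genes were) and 0 higher (3.09%), and 9 had an unadjusted p under 0.05 (23.4% of all genes). Mlxipl (ChREBP, the carbohydrate-responsive factor of lipogenesis) had 8827, 8059 and 9712 normalized counts in scramble livers and 4278, 5410 and 6761 in knockdown livers (log2 fold change −0.69, standard error 0.154, adjusted p = 0.0303). Nr1i3 (CAR, a xenobiotic receptor) had 616, 623 and 584 normalized counts in scramble livers and 335, 475 and 368 in knockdown livers, a difference of −0.63 on the log2 scale (standard error 0.126, adjusted p = 0.0172). For Srebf1, the sterol-responsive factor of fatty acid synthesis, the counts were 3641, 4035 and 4396 against 2866, 2519 and 2801, a difference of −0.56 (standard error 0.101, adjusted p = 0.0111). Each of the 3 was called in 9 of 9 other settings, and with 1 library left out in 2 (Mlxipl), 4 (Nr1i3) and 4 (Srebf1) of 6 fits. Mlxipl lost its call without scramble replicate 1, 2 or 3 or knockdown replicate 2, Nr1i3 without scramble replicate 2 or 3, and Srebf1 without scramble replicate 3 or knockdown replicate 2. All 3 were displayed by the study from these libraries and are no independent evidence of a direction. For Srebf1 the study also reported a significant fall by RT-qPCR.

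The receptors and partners that act on the members most directly were not called by edgeR. Ppara had 5678, 6839 and 5843 normalized counts in scramble livers and 4749, 5914 and 5080 in knockdown livers, with overlap (log2 fold change −0.22, adjusted p = 0.269). The log2 fold changes were −0.30 for Ppard, −0.20 for Pparg, 0.35 for Rxra (adjusted p = 0.0686), −0.34 for the coactivator Ppargc1a and −0.17 for Ppargc1b. The remaining factors were at 0.19 (Nr1h3), 0.078 (Nr1h4), −0.46 (Nr1i2, adjusted p = 0.0647), −0.085 (Hnf4a), 0.63 (Foxa2, adjusted p = 0.127), 0.25 (Cebpa), −0.32 (Ahr) and −0.0055 (Esrra). Some of these calls depended on the setting: DESeq2 called Rxra (adjusted p = 0.0284), Foxa2 (0.0302) and Nr1i2 (0.0372), spike-in scaling called Rxra, Nr1h3, Foxa2 and Cebpa, library totals alone called Nr1i2, and the unfiltered edgeR fit called Rxra, Nr1i2 and Ahr. With 1 library left out, Foxa2 was called without knockdown replicate 1 (0.00401), and Rxra (0.0426) and Nr1i2 (0.00634) without knockdown replicate 3.

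**Figure D5:**
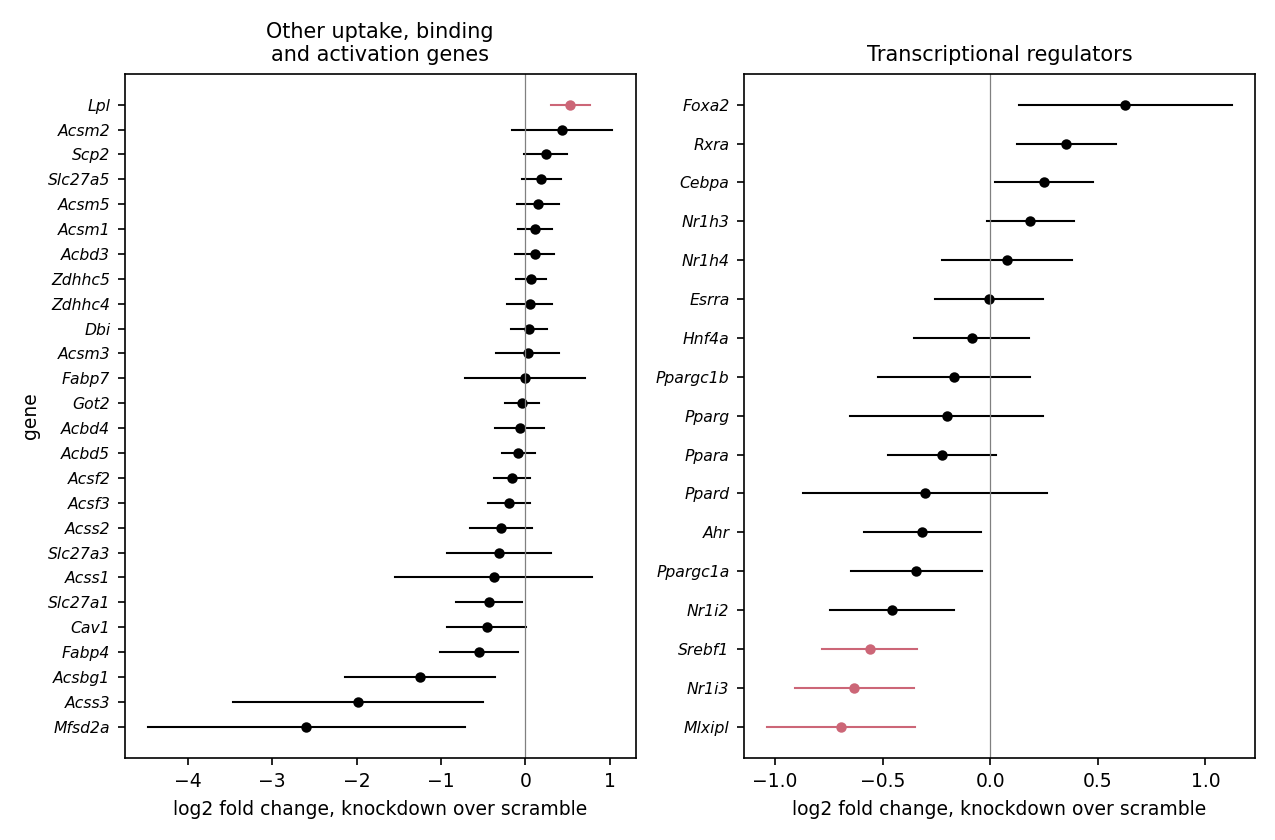
Log2 fold changes (knockdown over scramble) with 95% intervals from edgeR for the 26 tested genes of the wider list (left) and the 17 regulators (right), with called genes in red. Lpl at 0.53 is the called gene on the left, and Srebf1, Nr1i3 and Mlxipl, between −0.69 and −0.56, are those on the right.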

How the data were processed

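Liver RNA of 6 mice was sequenced, 3 per group, and replicates are mice. Per the methods, the authors used Trimmomatic, then STAR on GRCm38, then featureCounts for exonic reads that mapped uniquely. Its output was deposited as raw counts. The labels name GRCm39, and they describe depletion of ribosomal RNA where the methods describe poly(A) selection. The authors also deposited TPM, whose computation is not described in the sources used here. Their normalized counts and their table of fold changes and p-values were not used.

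The 92 spike-in rows among 40895 features were left out. In R 4.3.3 with edgeR 4.0.16, counts were scaled by TMM, filtered by filterByExpr with default settings and compared by a robust quasi-likelihood fit with the group as the only term; the biological coefficient of variation was 13.9%, so at these depths the spread between mice limits most genes more than counting does. Adjusted p-values are Benjamini-Hochberg over all 16327 genes tested, and intervals cover 95%. Shares used TPM with exact two-sided permutation tests. The members and all lists were chosen with earlier results of these data known. Genes named were the 10 members, Hnf1aos1, the genes called and the 5 of highest mean TPM in the wider list, and the 17 regulators given; others are marked, and 1 gene first listed as a regulator is not reported here. Alternatives were DESeq2 1.42.0, its size factors, library totals, spike-in scaling, spike-ins kept, no filter, a minimum mean of 50 counts, the replicate block, limma 3.58.1 (voom, and log2 of TPM with 0.1 added), and each library left out. Pairs of libraries of a group differed by 7.10 to 28.7 in chi-square per gene, where sampling noise gives about 1. The scripts were tested on simulated data. Positions are from GENCODE, promoters from RefSeq (GRCm38.p6), and figures were drawn with matplotlib 3.10.9.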

Additional observations from a re-analysis of the deposited data

How the results depend on the processing

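The count of members called, 0 with edgeR, was 1 with DESeq2, 1 with library sizes from the spike-ins (Fabp5 in both), and 0 to 2 with 1 library left out: 1 without knockdown replicate 1 (Acsl4), 2 without knockdown replicate 3 (Fabp5 higher, Fabp1 lower). The wider list, 1 with edgeR, gave 3 with DESeq2, 4 with spike-in sizes, 2 without a filter on low counts, 0 with deposited TPM, and 0 to 3 with 1 library left out. All genes called, 1032, became 3394 with spike-in sizes, 1902 without a filter, 594 with deposited TPM, and 103 (without scramble replicate 3) to 1881 (without knockdown replicate 3). Of the calls, 505 of 1032 were higher; library totals alone gave 320 of 1048 and spike-in sizes 3030 of 3394. Signs reversed for Cd36 (0.11 without scramble replicate 2, with a range of −0.65 to 0.11 over single libraries left out), Slc27a2 (0.17 with spike-in sizes, 0.088 without scramble replicate 2, 0.024 without knockdown replicate 1, range −0.11 to 0.088), Slc27a4 (0.13 with spike-in sizes, 0.025 without knockdown replicate 1, range −0.13 to 0.025), Acsl3 (−0.069 without knockdown replicate 1, range −0.069 to 0.33) and Acsl5 (0.047 with spike-in sizes). The cause of these shifts was not tested, beyond the spike-in sizes moving every gene by about 0.20. Same-numbered libraries did not deviate together over all genes tested (correlations −0.0226, 0.0231 and 0.0032). A correlation over all genes cannot show whether a shared batch touched some of them, so whether the numbers pair the mice is not known. With the replicate block 0 members, 2 genes of the wider list (Lpl and Mfsd2a) and 878 of all genes were called. With 3 mice a group, a missed threshold does not show that a gene was unchanged.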
